A study of Homo sapiens with 12 samples.

Results

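The aryl hydrocarbon receptor (AhR) pathway and the CYP1 enzymes were described across a dose series of ACD, a water extract of Aconitum carmichaeli Debeaux, in HT29 cells, a human colorectal adenocarcinoma cell line. The genes were CYP1A1, CYP1A2, CYP1B1, ALDH3A1, TIPARP, AHRR, AHR and ARNT, which are 8 of the 60675 gene IDs in the count table. They were found by matching their symbols to the Ensembl gene IDs. They were selected on their CPM and fold changes over the doses of these same libraries, so their values are given as a description and without a test. Of the 8 genes, 7 passed the filter on low counts, and CYP1A2 did not.

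RNA of HT29 cells was sequenced after 24 h in 12 libraries, with 3 libraries in each of 4 groups. The groups were the vehicle (PBS with 2% DMSO) and ACD at 20 µg/mL (low dose), 100 µg/mL (medium dose) and 500 µg/mL (high dose). Titles and the treatment field name the Aconitum extract, and the groups follow them, although the protocol text attached to these libraries describes preparing Poria cocos, a different herb. The labels do not say whether the 3 replicates of a group came from separate cultures. The spread between replicates, against which every p-value weighs a difference between groups, may therefore be technical. HT29 is 1 cancer cell line, and no dosed library carries a label for its DMSO content.

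AhR is a transcription factor that waits in the cytosol in a complex with heat shock proteins until it binds a small molecule such as a dioxin, a flavonoid or a tryptophan metabolite. It then enters the nucleus, pairs with ARNT and binds short DNA elements in front of its target genes. CYP1A1, CYP1A2 and CYP1B1, its best known targets, are cytochrome P450 enzymes that oxidize aromatic compounds. TIPARP and AHRR are targets that in turn restrain the receptor. In the gut epithelium the pathway responds to compounds of food and of microbes.

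The core of the DNA element that AhR and ARNT bind reads GCGTG, and a longer form reads TNGCGTG, which holds the core. Both were searched on both strands in front of the RefSeq transcription starts (GRCh38.p14), of which the table of promoters held 6 of the 8 genes, without CYP1B1 and ALDH3A1. In the 1500 bases before the start, CYP1A1 held 5 matches to the longer form, ARNT held 2 and AHRR held 1. TIPARP, AHR and CYP1A2 held 0. Among 27305 windows of the same length, 22.9% held the longer form at all and 0.0183% held 5 or more. This window of 1500 bases was added after seeing the data, and a shorter one is given below. The 8 matches are shown here because CYP1A1, the gene with the largest change, also held the most of them. Each is printed with 7 bases on either side, on the strand on which it reads TNGCGTG, with the match in capitals.
CYP1A1, 1385 bases before the start, chr15:74726900-74726920, plus strand: gttgtatTTGCGTGcctagct
CYP1A1, 1061 bases before the start, chr15:74726576-74726596, minus strand: tccccccTCGCGTGactgcga
CYP1A1, 986 bases before the start, chr15:74726501-74726521, plus strand: ccaggcgTTGCGTGagaagga
CYP1A1, 898 bases before the start, chr15:74726413-74726433, plus strand: ggctagcTTGCGTGcgccggc
CYP1A1, 503 bases before the start, chr15:74726018-74726038, plus strand: tcccggcTCGCGTGagaagcg
AHRR, 32 bases before the start, chr5:321675-321695, plus strand: gggcggcTCGCGTGccggggt
ARNT, 1176 bases before the start, chr1:150877762-150877782, minus strand: aggcgtgTGGCGTGcgcctgt
ARNT, 633 bases before the start, chr1:150877219-150877239, minus strand: cccagacTGGCGTGcagtggc

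Of the 5 matches of CYP1A1, 3 lay within 200 bases of each other, at 1061, 986 and 898 bases before the start. The stretch from 1080 to 881 bases before the start holds them, at chr15:74726409-74726608 on the minus strand of GRCh38. It is printed in the direction of the gene with the matches in capitals. A match on the other strand reads CACGCNA here.
CYP1A1, 200 bases: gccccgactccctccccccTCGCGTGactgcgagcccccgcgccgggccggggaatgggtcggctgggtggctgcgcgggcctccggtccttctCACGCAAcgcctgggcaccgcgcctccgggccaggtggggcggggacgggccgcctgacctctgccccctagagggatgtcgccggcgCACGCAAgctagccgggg

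The shorter core was common. It was found in 71.9% of the windows of 1500 bases, with a median of 1 match. CYP1A1 held 10 matches, as many as or more than which were held by 0.59% of the windows. TIPARP held 6 (5.56% of the windows had as many), ARNT held 5 (10.2%), AHRR held 4 (17.9%), CYP1A2 held 1 and AHR held 0. Nearer to the start, in the 250 bases before it and the 50 bases after it, 36.3% of the windows held the core. TIPARP held 2 matches there, CYP1A1, AHRR and AHR held 1 each, and CYP1A2 and ARNT held 0. The longer form was held by 5.51% of these nearer windows. AHRR held 1 match to it, and CYP1A1, CYP1A2, TIPARP, AHR and ARNT held 0. The 250 bases before the start of TIPARP, chr3:156674340-156674589 on the plus strand, are printed because the 6 cores of this gene lay nearer to the start than most of those of CYP1A1. The core on the other strand reads CACGC and is in capitals.
TIPARP, 250 bases before the start: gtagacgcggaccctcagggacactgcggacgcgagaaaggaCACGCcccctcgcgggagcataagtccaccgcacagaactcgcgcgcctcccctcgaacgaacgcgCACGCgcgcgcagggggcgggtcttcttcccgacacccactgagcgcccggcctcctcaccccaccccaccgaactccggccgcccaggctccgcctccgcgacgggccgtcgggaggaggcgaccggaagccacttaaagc

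**Figure D1:**
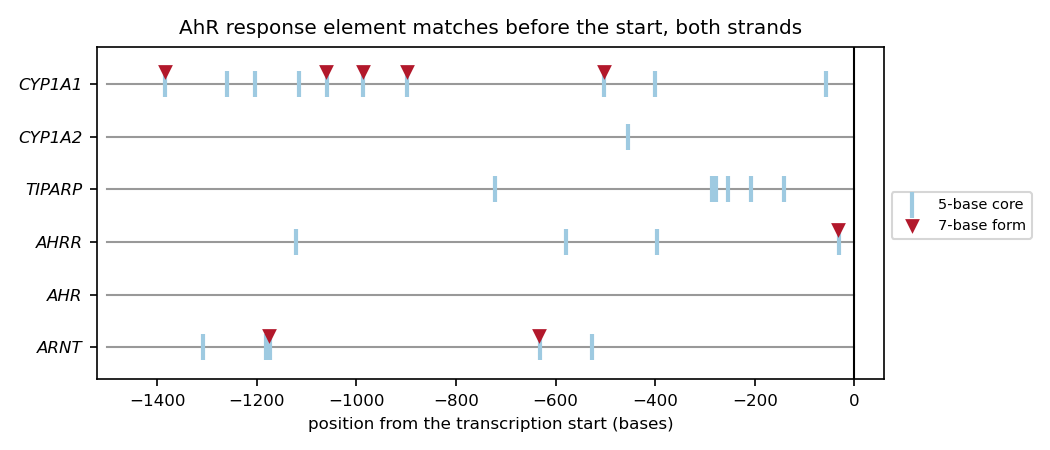
Positions of the 5-base core (blue bars) and of the 7-base form (red triangles) on both strands in the 1500 bases before the transcription start of the 6 genes with a promoter window. CYP1A1 holds 10 cores and 5 matches to the 7-base form, and AHR holds none of either.

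The matches are letters in the sequence and say nothing of binding in these cells. ARNT, with 2 matches to the longer form, and AHRR, with 1, had log2 fold changes against vehicle of at most 0.33, given below. TIPARP, with 0, lay above vehicle in all dosed libraries.

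The values below are CPM, the expected counts of a gene relative to the size of its library, scaled by the TMM method of edgeR. Fold changes are on the log2 scale, with the standard error (SE) of edgeR's quasi-likelihood fit over all 12 libraries. A gene was called when its adjusted p was under 0.05 and its fold change was over 1.5. Because RNA was taken from bulk cultures, fewer cells that express a gene and less RNA of it per cell cannot be told apart.

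The transcript of the receptor itself overlapped with vehicle at every dose. AHR (ENSG00000106546, chr7:16916359-17346152) was measured at 99.7, 106 and 114 CPM with vehicle, at 111, 108 and 106 CPM with the low dose, at 97.5, 105 and 99.7 CPM with the medium dose and at 110, 91.3 and 107 CPM with the high dose. The groups overlapped at every dose against vehicle. The log2 fold changes against vehicle were 0.03 (SE 0.08) at the low dose, −0.08 (SE 0.08) at the medium dose and −0.05 (SE 0.08) at the high dose, all within about 1 SE of 0.

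ARNT, the partner that AhR needs to bind DNA, changed little. ARNT (ENSG00000143437, chr1:150809713-150876708) stood at 26.6, 28.4 and 27.5 CPM with vehicle, 30.6, 30.8 and 32.5 CPM with the low dose, 30.5, 28.0 and 28.4 CPM with the medium dose and 32.4, 23.0 and 28.7 CPM with the high dose. The 3 low-dose libraries lay above the 3 vehicle libraries without overlap, as did 11.4% of all genes tested, with a log2 fold change of 0.18 (SE 0.10). At the medium and high doses it was 0.07 and 0.03 (SE 0.10 for each).

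CYP1A1 had the steepest curve of the 8 genes. This gene (ENSG00000140465, chr15:74719542-74725536, minus strand) encodes a P450 enzyme that is hardly made until AhR is active. It was measured at 0.110, 0.394 and 0.352 CPM with vehicle, which rest on 2, 13 and 8 expected counts. With the low dose it was at 5.84, 2.18 and 3.31 CPM, with the medium dose at 85.0, 90.5 and 94.4 CPM and with the high dose at 92.1, 102 and 101 CPM. No group overlapped with vehicle, and the low and medium doses did not overlap with each other. The medium-dose and high-dose libraries overlapped. The log2 fold change against vehicle was 3.60 (SE 0.43) at the low dose, 8.16 (SE 0.35) at the medium dose and 8.29 (SE 0.35) at the high dose. From the low to the medium dose it rose by a further 4.56 (SE 0.25), and from the medium to the high dose by 0.13 (SE 0.20). Since the vehicle level rests on few counts, the size of these fold changes depends on single vehicle libraries, and without 1 library in turn the high-dose value lay between 8.01 and 8.64.

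CYP1A2, which lies beside CYP1A1 in the opposite direction (ENSG00000140505, chr15:74748845-74756607, plus strand), is the main CYP1 enzyme of the liver. It had 0 expected counts in the 3 vehicle libraries, 1 in the 3 low-dose libraries together, 8 at the medium dose (2 to 3 per library) and 11 at the high dose (2 to 5 per library). The most that a count of 0 allows was taken as 3 counts in the vehicle group. Against this, the observed counts were 2.56-fold higher at the medium dose and 3.59-fold higher at the high dose. These ratios allow for counting error in the vehicle group alone. That of the 8 and 11 counts is not in them, so they are not lower bounds. CYP1A1 and CYP1A2 are close relatives, and it is uncertain whether some of these reads belong to CYP1A1. With the high dose CYP1A2 stood at 0.158 ± 0.0197 CPM (SD, n = 3), where CYP1A1 stood at 98.4 ± 5.52 CPM.

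CYP1B1 was the most abundant CYP1 gene at every dose. It is the CYP1 enzyme of many tissues outside the liver, and lies on the minus strand of chromosome 2 (ENSG00000138061, chr2:38066973-38109902). It was measured at 43.98, 47.5 and 51.8 CPM with vehicle, at 155, 101 and 106 CPM with the low dose, at 373, 401 and 384 CPM with the medium dose and at 348, 299 and 358 CPM with the high dose. All dosed libraries lay above all vehicle libraries, and each high-dose library lay below each medium-dose library. The log2 fold changes were 1.34, 3.01 and 2.81 in order of dose (SE 0.15 for each), and the difference from the medium to the high dose was −0.20 (SE 0.14).

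TIPARP, an enzyme that attaches ADP-ribose to AhR and so limits its activity, changed less than CYP1A1 and CYP1B1 at each dose. Like them, it lay above vehicle from the low dose on. TIPARP (ENSG00000163659, chr3:156673235-156706770) stood at 61.3, 64.1 and 68.7 CPM with vehicle, 121, 96.5 and 106 CPM with the low dose, 170, 176 and 177 CPM with the medium dose and 174, 192 and 189 CPM with the high dose. The medium and high doses overlapped with each other and with no other group. The log2 fold changes against vehicle were 0.74, 1.43 and 1.51 (SE 0.09 for each).

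ALDH3A1 differed from these in shape. It encodes an aldehyde dehydrogenase that clears reactive aldehydes (ENSG00000108602, chr17:19737984-19748943). It was at 22.9, 21.5 and 20.7 CPM with vehicle, 26.7, 27.2 and 29.1 CPM with the low dose, 51.7, 52.7 and 53.6 CPM with the medium dose and 74.0, 81.4 and 74.1 CPM with the high dose. The libraries stood in the order of the dose, with no overlap between any groups. The log2 fold changes were 0.35, 1.28 and 1.82 (SE 0.07 for each), and the step from the medium to the high dose was 0.54 (SE 0.07).

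AHRR, the AhR repressor, competes with AhR for ARNT and is itself a known target of the receptor. AHRR (ENSG00000063438, chr5:321714-438291) was low, at 3.30, 5.33 and 4.57 CPM with vehicle, 5.22, 5.25 and 5.10 CPM with the low dose, 5.19, 5.88 and 5.81 CPM with the medium dose and 5.67, 3.33 and 5.72 CPM with the high dose. The groups overlapped at every dose. The log2 fold changes were 0.22 (SE 0.19), 0.33 (SE 0.19) and 0.17 (SE 0.20), less than 2 SE from 0 at each dose.

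**Figure D2:**
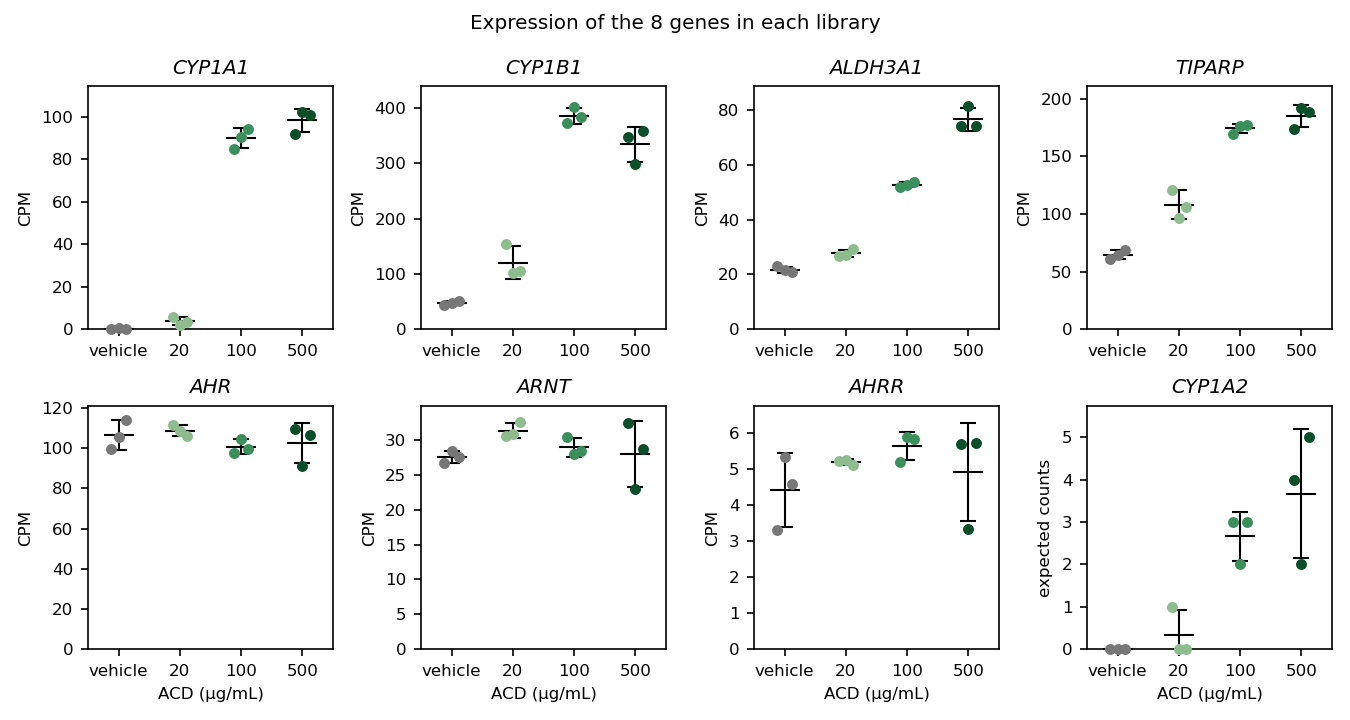
Level of the 8 genes in each of the 12 libraries, in CPM (expected counts for CYP1A2), against the dose of ACD. Points are libraries, and the bar with whiskers is the mean ± SD of 3 libraries. CYP1A1, CYP1B1, ALDH3A1 and TIPARP lie above vehicle at every dose, whereas AHR and AHRR overlap with vehicle throughout.

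By the thresholds used for all genes, CYP1A1, CYP1B1 and TIPARP were called as higher at the low dose, and with 100 or 500 µg/mL these 3 and ALDH3A1 were. AHR, ARNT and AHRR were called in no comparison. Among the 15374 genes tested, 0.111% were called at the low dose, 0.676% with the medium dose and 2.93% with the high dose. These shares are given for scale, since the genes were chosen with this outcome known. From the low to the medium dose the same 4 genes were called, where 0.104% of all genes were, and from the medium to the high dose 0 of the 7 were, where 0.488% were. Libraries of the dose lay above those of vehicle without overlap in 5 of the 7 genes at the low dose, the 4 targets and ARNT, and in the 4 targets at the other doses, where 11.4%, 14.5% and 10.5% of all genes did so. From the low to the medium dose the 4 targets lay above (6.46% of all genes) and AHR and ARNT below (7.29%). From the medium to the high dose ALDH3A1 lay above (8.32%) and CYP1B1 below (8.19%).

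The targets also differed in how much of the high-dose change was present at lower doses. At the low dose, the increase in CPM over vehicle was 3.56% of that at the high dose for CYP1A1, 10.9% for ALDH3A1, 25.4% for CYP1B1 and 36.1% for TIPARP. Single low-dose libraries gave 1.94% to 5.66% for CYP1A1, 9.04% to 13.5% for ALDH3A1, 18.6% to 37.4% for CYP1B1 and 26.5% to 47.1% for TIPARP. In CPM, CYP1A1 and ALDH3A1 did not overlap with each other or with the other genes, and CYP1B1 overlapped with TIPARP. This order depends on the scale. The log2 fold changes with the low and the high dose were 3.60 and 8.29 for CYP1A1 and 0.35 and 1.82 for ALDH3A1. For CYP1B1 they were 1.34 and 2.81, and for TIPARP 0.74 and 1.51. At the medium dose the share in CPM was 91.4% for CYP1A1 and 91.2% for TIPARP, 118% for CYP1B1 and 56.5% for ALDH3A1. The 3 libraries gave 54.7% to 58.1% for ALDH3A1 and at least 86.4% for each of the others. Hence CYP1A1, CYP1B1 and TIPARP were near or past their high-dose level at 100 µg/mL, and ALDH3A1 was a little over midway in CPM.

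**Figure D3:**
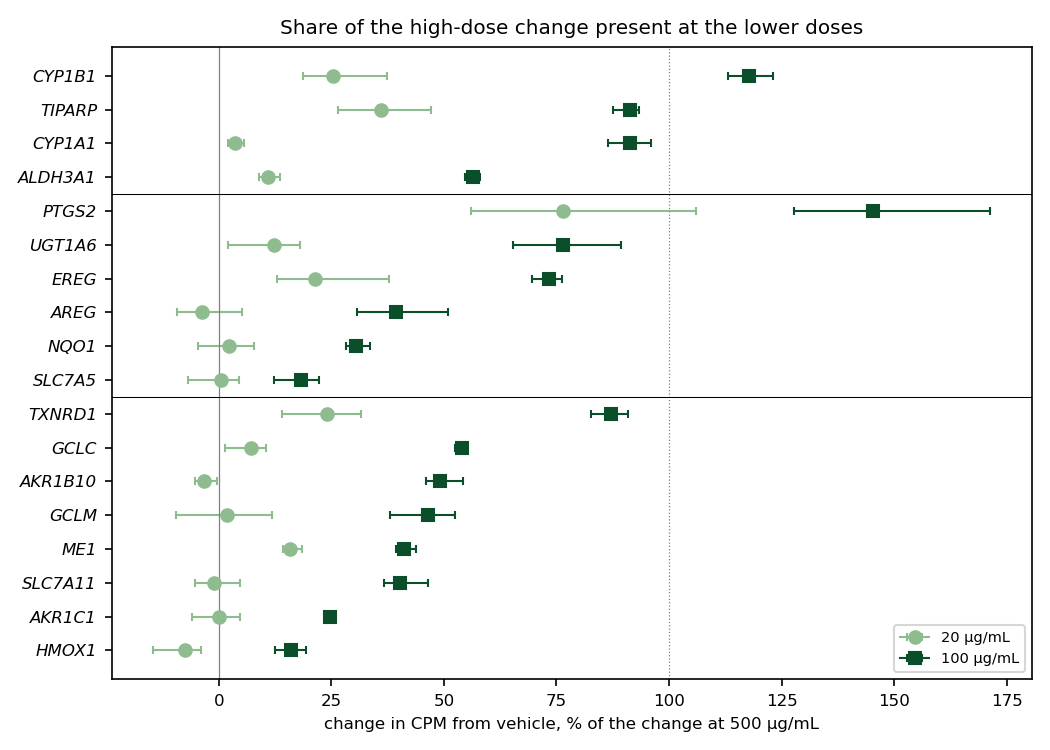
Change in CPM from vehicle at the low dose (circles) and at the medium dose (squares), as a percentage of the change at the high dose. Symbols are group means and whiskers are the lowest and highest library, for targets of the set (top), other AhR targets called at the high dose (middle) and the 8 NRF2 targets called at the high dose (bottom). At the medium dose the NRF2 targets spread from HMOX1 (15.9%) to TXNRD1 (87.0%), a range that holds ALDH3A1 (56.5%), and CYP1A1 and TIPARP lie above 90%.

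Low-dose replicate 1 was the highest of its group for CYP1A1, CYP1B1 and TIPARP and the lowest for ALDH3A1. Without it, the low-dose log2 fold change was 3.11 for CYP1A1, 1.11 for CYP1B1, 0.65 for TIPARP and 0.37 for ALDH3A1.

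Levels of different genes were compared per kilobase of the main transcript (CPM per kb). With vehicle, AHR (17.1 ± 1.17, SD, n = 3) and TIPARP (16.8 ± 0.962) were the highest and did not differ beyond their spread. They were followed by ALDH3A1 (13.2 ± 0.678), CYP1B1 (9.15 ± 0.747), ARNT (5.84 ± 0.184), AHRR (0.778 ± 0.181) and CYP1A1 (0.110 ± 0.059), and CYP1A2 was at 0. With the high dose, CYP1B1 led at 64.2 ± 6.05 CPM per kb. TIPARP (47.9 ± 2.49) and ALDH3A1 (46.7 ± 2.59) came next and overlapped, then CYP1A1 (37.8 ± 2.12), AHR (16.4 ± 1.57), ARNT (5.95 ± 1.00), AHRR (0.867 ± 0.242) and CYP1A2 (0.0506 ± 0.0063). CYP1A1 thus moved from below AHRR to above AHR. Per kilobase, CYP1B1 stood 60.2-fold to 199-fold above CYP1A1 in the vehicle libraries, 13.2-fold to 23.1-fold above it with the low dose, 2.03-fold to 2.21-fold with the medium dose and 1.46-fold to 1.88-fold with the high dose. The 4 ranges did not overlap.

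The high-dose libraries had some features of their own. Mitochondrially encoded genes took 14.04% to 16.6% of their expected counts, 8.74% to 10.1% with vehicle and 7.41% to 11.05% at the low and medium doses. High-dose replicate 2 stood apart, with an SD of 0.50 in its log2 difference from the other libraries of its group, where the other 11 libraries had 0.10 to 0.29. It was the lowest high-dose library for CYP1B1, AHR, ARNT and AHRR and the highest for CYP1A1, ALDH3A1 and TIPARP. Without it, the high-dose log2 fold changes were 8.26 for CYP1A1, 2.88 for CYP1B1, 1.77 for ALDH3A1, 1.49 for TIPARP, 0.34 for AHRR, 0.02 for AHR and 0.14 for ARNT. With mitochondrial genes removed from the table, that of CYP1A1 was 8.29 and that of CYP1B1 was 2.81. The total per library lay between 15941255 and 33866644 expected counts (median 23833237). The 8 markers of colon epithelium were all found and summed to 10470 to 12385 CPM with vehicle and 10692 to 12477 CPM with the high dose, with CEACAM5 alone called, at the high dose. Each of 4 lists of 6 markers for fibroblasts, blood immune cells, glia and hepatocytes summed to at most 15.1 CPM in any library, with COL1A2, MS4A1, S100B, OLIG2 and APOB at 0 in all.

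Other transcripts that AhR is known to raise were listed apart from the set. The genes of the set were selected on their fold changes, so a smaller change in this list is not a result. A list of 25 such targets was compiled, of which 18 passed the filter on low counts. At the low dose 0 of 18 were called by edgeR's quasi-likelihood test and 0 by DESeq2, and 2 had an unadjusted p under 0.05, as did 7.95% of all genes tested. At the medium dose 3 were called, all as higher, and at the high dose 6 were called, all as higher, where 0.384% and 1.26% of all genes tested were called as higher. The median log2 fold change of the list was 0.05, 0.22 and 0.20 in order of dose, and that of all genes was within 0.01 of 0. The list was compiled with results of these libraries known.

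The epidermal growth factor receptor ligand EREG had the largest increase of the list. It was at 75.8, 77.3 and 85.3 CPM with vehicle, 114, 91.3 and 91.2 CPM with the low dose, 147, 149 and 143 CPM with the medium dose and 182, 156 and 173 CPM with the high dose. All dosed libraries lay above all vehicle libraries. EREG rose by 0.88 (SE 0.10, adjusted p = 0.000644 by edgeR) at the medium dose and by 1.10 (SE 0.10, adjusted p = 3.59e-05) at the high dose on the log2 scale. At the low dose the log2 fold change was 0.31 (adjusted p = 0.348).

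PTGS2, the inducible cyclooxygenase of prostaglandin synthesis, was highest at the medium dose. It went from 13.9, 15.8 and 16.4 CPM with vehicle to 24.4, 20.1 and 21.1 CPM with the low dose, 26.2, 29.9 and 27.0 CPM with the medium dose and 24.2, 23.6 and 23.8 CPM with the high dose. It rose by 0.85 (SE 0.09, adjusted p = 0.000703 by edgeR) at the medium and by 0.63 (SE 0.09, adjusted p = 0.00179) at the high dose, and was at 0.50 (adjusted p = 0.0700) at the low dose. Without vehicle replicate 1 its high-dose log2 fold change of 0.57 fell short of the fold threshold.

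UGT1A6, which attaches glucuronic acid to phenols, was at 43.3, 45.1 and 43.4 CPM with vehicle and at 74.6, 93.6 and 63.2 CPM with the high dose. It rose by 0.66 (SE 0.12, adjusted p = 0.0199 by edgeR) at the medium dose and by 0.81 (SE 0.12, adjusted p = 0.00156) at the high dose. The medium-dose call was lost without any 1 of the 3 vehicle or the 3 medium-dose libraries, with adjusted p between 0.0603 and 0.111. The genes of the UGT1A cluster share exons, so its counts are uncertain.

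The other 3 called genes, SLC7A5, AREG and NQO1, passed the threshold at the high dose alone. The amino acid transporter SLC7A5 rose by 0.90 (SE 0.17, adjusted p = 0.00775 by edgeR), the growth factor AREG by 0.89 (SE 0.15, adjusted p = 0.00386) and the quinone reductase NQO1 by 0.89 (SE 0.15, adjusted p = 0.00386). High-dose replicate 2 stood apart in each. For SLC7A5 it was at 357 CPM, between the vehicle libraries (282 to 298 CPM) and the other 2 high-dose libraries (640 and 617 CPM). For NQO1 it was at 1230 CPM, above the other 2 (773 and 788 CPM), and for AREG at 95.6 CPM, above 65.1 and 64.4 CPM. Without it, the log2 fold changes were 1.12 for SLC7A5, 0.69 for AREG and 0.63 for NQO1, and all 3 were still called. In a fit of the vehicle and high-dose libraries alone, SLC7A5, AREG, NQO1 and UGT1A6 missed the threshold, with adjusted p between 0.0559 and 0.134, and 2 of the 18 genes were called.

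NFE2L2, CYP2S1, ABCG2, MYC, HES1 and the other tested genes of the list were not called at any dose. NEDD9, a scaffold protein, had an adjusted p of 0.0424 by edgeR at the high dose with a log2 fold change of −0.36, which is under the fold threshold. SERPINB2, IDO1 and STC2 were at 0 in all libraries.

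**Figure D4:**
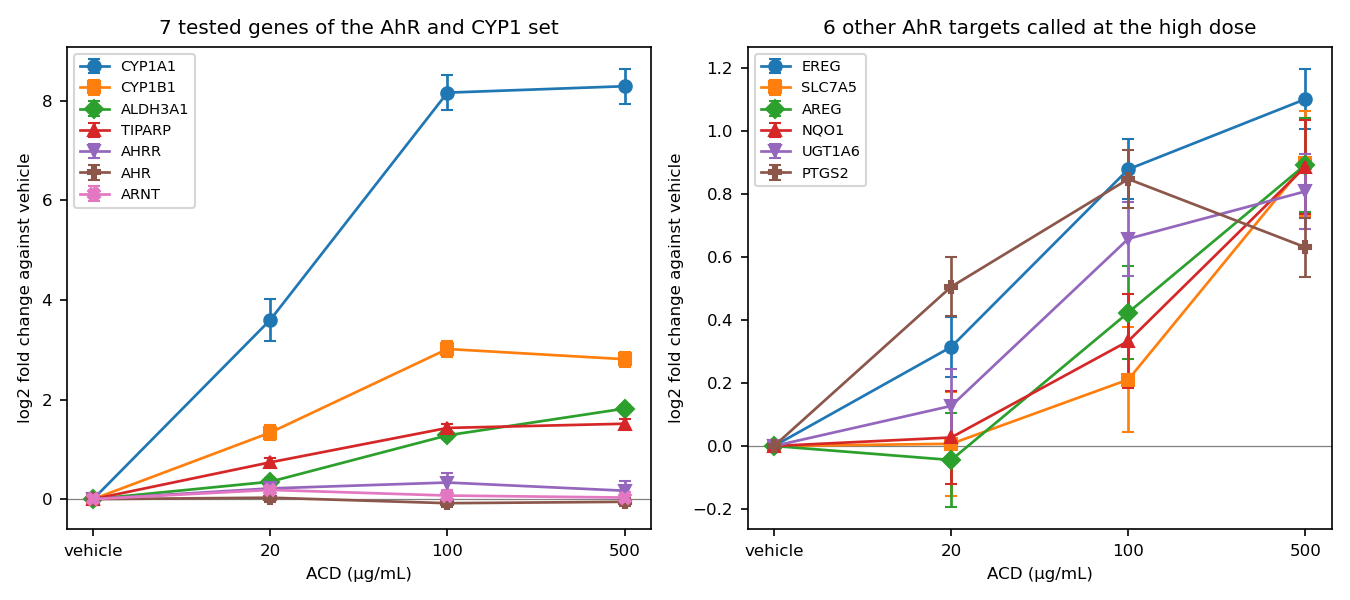
Log2 fold change against vehicle (± SE of the fit) at each dose for the 7 tested genes of the set (left) and for 6 other AhR targets called at the high dose (right). The vertical scales differ, since CYP1A1 reaches 8.29 and the other targets reach 1.10. AHR, ARNT and AHRR stay between −0.08 and 0.33.

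Genes for the proteins around the receptor gave no call, as most genes did at these thresholds. The list held 20 genes of its cytosolic complex (such as HSP90AA1, HSP90AB1 and PTGES3), its coregulators (such as NCOA1, EP300, CREBBP and NRIP1) and its turnover (CUL4B, DDB1, STUB1), of which 19 were tested and 0 were called at any dose by edgeR or DESeq2, where 0.111%, 0.676% and 2.93% of all genes were called by edgeR in order of dose, so that 0 of 19 is near the share of all genes. None had an unadjusted p under 0.05 in any comparison, where 7.95%, 11.7% and 20.1% of all genes did against vehicle in order of dose. At the high dose the log2 fold changes lay between −0.18 and 0.23, with a median of 0.03. ARNT2, a relative of ARNT, was at 0 CPM. Of 12 other members of the bHLH-PAS family, to which AHR and ARNT belong, 7 were tested and 0 were called by edgeR or DESeq2, with 1 or 2 at an unadjusted p under 0.05 at each dose. The 0 called is near the shares of all genes given above. In order of dose 1, 2 and 2 of the 7 had such a p, where 7.95%, 11.7% and 20.1% of all genes did. No difference is read from 7 genes. HIF1A, which also pairs with ARNT, had a log2 fold change of 0.27 (adjusted p = 0.0371 by edgeR) at the high dose, and ARNTL, the clock gene known as BMAL1, had 0.41 (adjusted p = 0.0357), both under the fold threshold. At that dose 5.77% of all genes had an adjusted p under 0.05 at any fold.

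Genes that supply electrons to P450 enzymes or process their products did not stand apart from all genes in their counts. Of 11 listed genes 10 were tested and 0 were called at any dose by edgeR or DESeq2, with 0, 1 and 2 at an unadjusted p under 0.05 in order of dose, where 2.93% of all genes were called and 20.1% had such a p at the high dose. Among them was POR, the reductase that all microsomal P450 enzymes need, at 83.7 CPM with vehicle and 81.6 CPM with the high dose. The epoxide hydrolase EPHX1, which hydrates the epoxides that CYP1 enzymes form, had a log2 fold change of 0.46 (SE 0.06, adjusted p = 0.000892 by edgeR) at the high dose, under the fold threshold, with the 3 libraries at 126, 131 and 124 CPM against 98.0, 91.6 and 87.5 CPM with vehicle.

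Among 15 tryptophan enzymes that make or remove ligands of AhR or their precursors, 11 were tested and 1 was called, at the medium and the high dose, where 0.676% and 2.93% of all genes were called. IL4I1, an amino acid oxidase whose products are ligands of AhR, was at 0.110, 0.212 and 0.264 CPM with vehicle, 0.687, 0.951 and 0.492 CPM with the low dose, 1.06, 0.555 and 1.06 CPM with the medium dose and 1.62, 0.991 and 1.11 CPM with the high dose. All dosed libraries lay above vehicle, at levels of few counts. It rose by 2.60 (SE 0.41, adjusted p = 0.00247 by edgeR) at the high dose and by 2.09 (SE 0.42, adjusted p = 0.0393) at the medium dose, and was at 1.81 (adjusted p = 0.176) at the low dose. The medium-dose call was lost without any 1 of 7 libraries (the 3 vehicle libraries, medium-dose replicates 1 and 3, high-dose replicate 3 and low-dose replicate 1), with adjusted p from 0.0559 to 0.174, and without high-dose replicate 2 the low-dose difference was called (adjusted p = 0.0353).

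Targets of NRF2, a factor of the oxidative stress response that shares NQO1 and some other targets with AhR, were listed for comparison. Of 12 genes, all tested, 0, 4 and 8 were called in order of dose, all as higher, where 0.065%, 0.384% and 1.26% of all genes were called as higher. Their median log2 fold changes were 0.03, 0.43 and 0.74. At the low dose 2 had an unadjusted p under 0.05, as did 7.95% of all genes, and DESeq2 called 0. Without high-dose replicate 2, 10 were called at the high dose. At the high dose the largest were AKR1C1 (1.36, adjusted p = 0.000786 by edgeR, uncertain because of its close relatives), SLC7A11, the cystine transporter (1.20, adjusted p = 2.93e-05), AKR1B10 (1.13, adjusted p = 3.08e-05) and HMOX1, heme oxygenase (1.09, adjusted p = 9.38e-05). GCLC and GCLM, the subunits of the first enzyme of glutathione synthesis, were at 0.77 (adjusted p = 2.30e-05) and 0.75 (adjusted p = 0.000335). At the low dose the 12 genes lay between −0.12 and 0.21. TXNRD1, a thioredoxin reductase, was the highest (unadjusted p = 0.0109, adjusted p = 0.429 by edgeR). The 18 tested genes of the other AhR targets had a median of 0.05 at this dose, with 0 called. CYP1A1, CYP1B1, TIPARP and ALDH3A1 lay between 0.35 and 3.60, but these genes were selected on such values, so the lists are not ordered by them. SLC7A11 and HMOX1 stood at 137 ± 9.17 and 8.33 ± 0.628 CPM with the low dose and at 139 ± 7.97 and 9.10 ± 0.715 CPM with vehicle (SD, n = 3). The call of SLC7A11 at the medium dose (0.61, adjusted p = 0.0106) was lost without vehicle replicate 1 or 2 or medium-dose replicate 2, with adjusted p up to 0.0696.

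**Figure D5:**
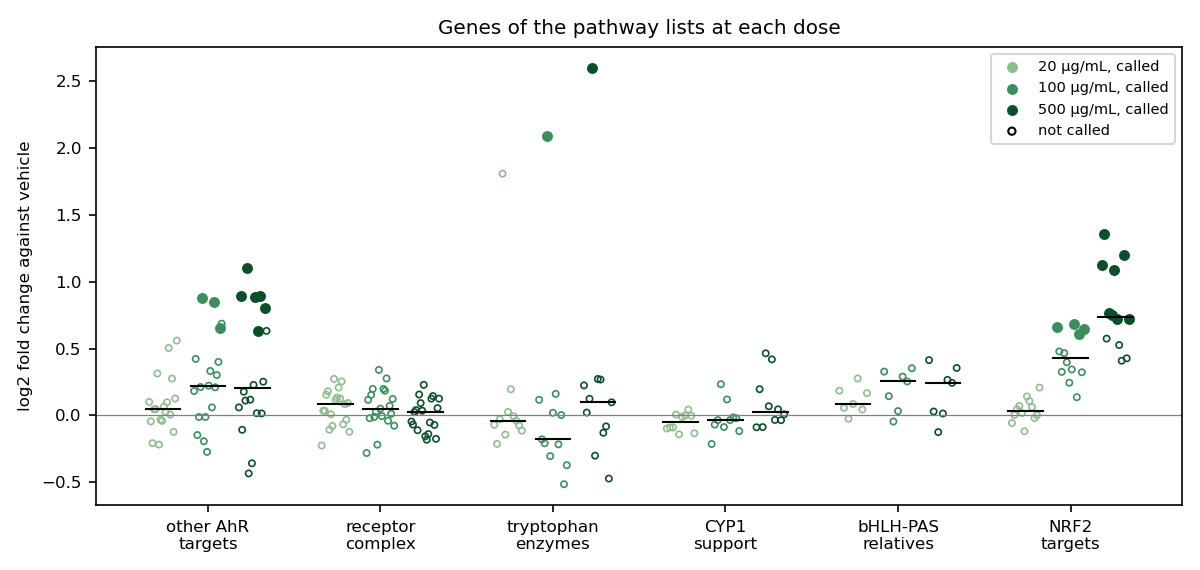
Log2 fold change against vehicle of the tested genes of 6 lists at 20, 100 and 500 µg/mL. Each point is a gene, filled when called, and black lines are medians. Called genes appear among the other AhR targets, the NRF2 targets and, with IL4I1 alone, the tryptophan enzymes.

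The genes whose pattern was most like that of CYP1A1 were sought among 13140 genes with a mean of at least 1 CPM, by Pearson's r of log2 CPM over the 12 libraries. TIPARP (r = 0.993), CYP1B1 (0.993), ADGRF1 (0.991), TXNRD1 (0.984) and BIRC3 (0.983) were the first 5, and EREG ranked at 10, ALDH3A1 at 25 and UGT1A6 at 48. These values describe libraries that share 4 groups, so a step between the groups alone gives a high r. For AHRR r was 0.371, for AHR −0.369 and for ARNT −0.005. ADGRF1, an adhesion G protein-coupled receptor, was at 30.6 ± 1.89 CPM with vehicle, 44.7 ± 4.88 CPM with the low dose, 82.0 ± 1.42 CPM with the medium dose and 73.8 ± 2.11 CPM with the high dose (SD, n = 3). BIRC3, an inhibitor of apoptosis, was at 5.00 ± 0.0708, 6.99 ± 1.11, 10.3 ± 0.454 and 10.6 ± 0.837 CPM in the same order.

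The genes around CYP1A1 on the chromosome were counted in the same way. Of the 5 nearest tested genes on each side on chromosome 15, 0 of 10 were called at any dose against vehicle by edgeR or DESeq2, and 1, 3 and 4 had an unadjusted p under 0.05 in order of dose. Over all genes 0.111%, 0.676% and 2.93% were called and 7.95%, 11.7% and 20.1% had such a p. The 0 of 10 called is near the share of all genes. The 3 and 4 of 10 with such a p at the medium and high doses lie above their shares, a difference that was not tested. EDC3, the nearest on one side at a distance of 23250 bases, had log2 fold changes of 0.38 at the medium dose (SE 0.06, adjusted p = 0.00903 by edgeR) and 0.38 at the high dose (SE 0.06, adjusted p = 0.00279), both under the fold threshold. CSK, the nearest tested gene on the side of CYP1A2, had 0.13 at the high dose (adjusted p = 0.370).

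At CYP1B1 the antisense transcript moved with the gene. CYP1B1-AS1 (ENSG00000232973, chr2:38073447-38231651, plus strand) was at 2.15, 2.52 and 2.72 CPM with vehicle, 6.01, 3.91 and 3.98 CPM with the low dose, 10.5, 8.91 and 9.46 CPM with the medium dose and 8.29, 6.16 and 7.59 CPM with the high dose. It rose by 1.95 (SE 0.18, adjusted p = 0.000169 by edgeR) at the medium dose and by 1.58 (SE 0.18, adjusted p = 0.000304) at the high dose, and was at 0.91 (adjusted p = 0.104) at the low dose. Its CPM was 4.88% to 5.29% of that of CYP1B1 with vehicle and 2.06% to 2.38% with the high dose. The library kit keeps the strand, but the strand setting of the counting is not given in the sources used here, so reads of the 2 genes, and of RMDN2, which also overlaps CYP1B1 on the plus strand, may not be fully separated. TIPARP-AS1 stayed under 1 CPM in all libraries and was not called.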

How the data were processed

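RNA from 12 libraries of HT29 cells was analysed. According to the study's methods and the submitters' processing notes, the authors used FastQC 0.11.9 and Trim Galore on the reads, STAR for alignment and RSEM 1.3.3 with an Ensembl GRCh38 annotation for quantification. The versions of Trim Galore and STAR differ between these sources, and the strand setting of RSEM is not given in the sources used here. The deposited values are expected counts per gene ID, not normalized, and were rounded to whole numbers.

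edgeR 4.0.16 (R 4.3.3) was run with filterByExpr, TMM and the robust quasi-likelihood test on all 12 libraries, with the 4 groups as terms. Adjusted p-values are Benjamini–Hochberg values over 15374 genes, for each of 5 comparisons. SE was obtained from the F statistic. The biological coefficient of variation was 11.2%. Thresholds were an adjusted p under 0.05 and a fold over 1.5. Log2 CPM for the likeness to CYP1A1 used a prior count of 2. Symbols, coordinates and lengths came from GENCODE release 44 (GRCh38), which held 93.2% of the gene IDs, and all 135 listed symbols were found. Promoter sequences came from RefSeq (GRCh38.p14), and longer windows from the matching genome sequence. Tests were first run on simulated data.

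The members, lists and rules were chosen with earlier results of these data known. The genes named are the 8 members, up to 6 genes of each list with the largest high-dose change among those called at any dose, the 5 genes most like CYP1A1, its 5 neighbours on each side and the antisense genes. Other genes named were chosen after their values were seen. Alternatives were DESeq2 1.42.0, a fit of 2 groups alone, DESeq2's size factors, no filter or at least 10 counts in every library, no minimum fold, a block for the replicate number, and leaving out 1 library at a time. The window of 1500 bases and the fit without mitochondrial genes were added after seeing the data. Other cell lines and treatments were not analysed here. The values of 1 listed gene are not reported here. Counting intervals and floors cover counting error only.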

Additional observations from a re-analysis of the deposited data

How the results depend on the processing

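The log2 fold changes of the 7 tested genes of the set moved by less than 1 SD of the replicates under each alternative that could be fitted, and in the fit of 2 groups alone 3 of the 4 targets were called from low to medium. CYP1A1 lay between 3.11 and 3.94 at the low, 7.88 and 8.50 at the medium and 8.01 and 8.64 at the high dose. It has too few vehicle counts for the filter of at least 10 counts in every library. AHR and ARNT, which were not called, changed sign without single libraries.

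Counts over all genes moved more. Leaving out 1 library gave 10 to 109 genes called at the low dose (17 in all libraries), 52 to 249 at the medium (104), 310 to 768 at the high dose (451), 8 to 29 from low to medium (16) and 44 to 100 from medium to high (75). The upper ends are without high-dose replicate 2, and the lower ends at the low and medium doses are without vehicle replicate 2. A fit of 2 groups alone called 51, 191, 172, 33 and 10 in the same order. At the low dose DESeq2 called 50 and no filter 34. Without a minimum fold, 887 were called at the high dose and 137 from medium to high.

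Of the other AhR targets, 2 were called at the high dose in the fit of 2 groups alone (5 to 7 without 1 library). From low to medium the count of 0 became 1 (EREG) without a minimum fold or without low-dose replicate 1 (0 to 1), and from medium to high 1 (SLC7A5) with DESeq2 or without high-dose replicate 2 (0 to 1). The longer motif was found in 3 of 6 genes in 1500 bases and in 1 in 300 bases. The cause of these shifts was not tested.

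No shared signal by replicate number was seen. Same-numbered libraries correlated between −0.264 and 0.139 in their deviations from the group means, and differently numbered ones between −0.240 and 0.312. With 3 libraries per group these values cannot exclude a pairing. With the number as a block, 17, 75, 379, 11 and 63 genes were called, and CYP1A1 was at 8.28 at the high dose. The block ended the calls of UGT1A6 (adjusted p = 0.0544 by edgeR) and IL4I1 (0.0975) at the medium dose, and of SLC7A11 and AKR1B10 from low to medium and AKR1C1 and SLC7A11 from medium to high. The depth limits CYP1A2, IL4I1 and the vehicle level of CYP1A1, which rest on few counts.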
